A study of Mus musculus with 30 samples.

Results

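The 9 genes described here belong to the endosomal arm of innate nucleic acid sensing and were followed across sorted spleen phagocytes of TLR7.1 and wild-type (WT) mice. They were chosen by name, as a family of receptors and the proteins that fold, carry and cleave them. The receptors are Tlr7, Tlr8, Tlr9, Tlr3 and Tlr13, and the helpers are Unc93b1, Cnpy3, Slc15a4 and Lgmn. All 9 were found among the 37991 gene identifiers of the deposited count table, and 8 of the 9 passed the filter on low counts that left 11030 genes for testing. Tlr9 did not pass, and is described from its counts.

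Endosomal Toll-like receptors read nucleic acid that a phagocyte has taken up, and signal through MyD88 or, for TLR3, through TRIF. TLR7 and TLR8 recognise single-stranded RNA and its breakdown products, TLR9 recognises DNA with unmethylated CpG, TLR3 recognises base-paired RNA, and TLR13 recognises bacterial ribosomal RNA in the mouse. Receptors such as TLR7 and TLR9 are folded in the endoplasmic reticulum with the help of CNPY3 and carried to endosomes by UNC93B1, where proteases such as legumain, the product of Lgmn, cleave the ectodomain. SLC15A4 is a lysosomal transporter of histidine and peptides that TLR7 and TLR9 responses need. Red pulp macrophages take up aged red blood cells, so this machinery sits in the compartment that receives their cargo.

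The groups were 6 libraries each of TLR7.1 iHPC, TLR7.1 RPM, TLR7.1 Mono, WT RPM and WT Mono, from 6 TLR7.1 and 6 WT B6 mice. TLR7.1 mice overexpress Tlr7 from a transgene, the labels do not describe the construct, and the counts cannot tell transcripts of the transgene from those of the endogenous gene. All mice were female, aged 9.4 to 15.7 weeks. Each library held 500 live CD45.2+ cells free of Siglec-F and Ly6G. Inflammatory hemophagocytes (iHPC) were Ly6C-, CD31-high, VCAM-low, F4/80-low and CD11b+, and only TLR7.1 mice gave this population. Red pulp macrophages (RPM) were Ly6C-, CD31-low, VCAM-high and F4/80+ with absent or intermediate CD11b. Monocytes (Mono) were Ly6C+, Ccr2+ and CD11b+. Every mouse gave 1 library of each of its populations, so differences between populations could also be counted per mouse. The sort gates pool all cells that meet them, and in such bulk libraries fewer cells of a type and less RNA per cell cannot be told apart.

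Library totals ran from 95002 to 1932427 counts, with group medians of 1112665 in TLR7.1 iHPC, 820242 in TLR7.1 RPM, 1656511.5 in TLR7.1 Mono, 544757 in WT RPM and 1584430 in WT Mono. Markers of RPM and Mono followed their gates. Summed red pulp macrophage markers ran from 5589 to 11709 CPM (counts scaled by library size to a common total) in TLR7.1 RPM and from 642 to 819 CPM in TLR7.1 Mono, and summed monocyte markers from 50.8 to 152 CPM in TLR7.1 RPM and from 3869 to 4446 CPM in TLR7.1 Mono. Markers listed for the iHPC gate were mixed. Pecam1 and Itgax had their highest means in iHPC, at 516 and 579 CPM. Itgam and Cx3cr1 averaged 187 and 196 CPM in iHPC, below the 315 and 286 CPM of TLR7.1 Mono. Itgad averaged 341 CPM in iHPC, below the 442 CPM of TLR7.1 RPM. Genes of other cells were present as well. Basophil and mast cell markers summed to 0.925 to 4516 CPM in TLR7.1 iHPC, lowest in mouse 24261, and to at most 10.4 CPM in TLR7.1 RPM and 2.46 CPM in TLR7.1 Mono. The 8 markers of plasmacytoid dendritic cells, a cell type rich in TLR7 and TLR9, summed to 78.7 to 199 CPM in TLR7.1 iHPC, 162 to 541 CPM in TLR7.1 RPM, 45.5 to 138 CPM in TLR7.1 Mono, 149 to 459 CPM in WT RPM and 126 to 183 CPM in WT Mono. Most of each sum came from Ly6d and Tcf4, which averaged 239.6 and 111 CPM in TLR7.1 RPM. Of these 8, Siglech and Klk1 held no read in any group, and Ccr9, Cox6a2 and Pacsin1 averaged at most 2.25 CPM in any group. The sums therefore do not show that plasmacytoid dendritic cells were present. Of the 3 tested, 2 were higher in RPM than in Mono in each genotype (23.9% of all genes in TLR7.1 and 23.7% in WT mice). All 3 markers were lower in iHPC than in TLR7.1 RPM (13.5% of all genes). Their part in the levels of the members was not tested. The densest gene of a library held 0.562 to 1.59 reads per exon base and the members at most 0.553, reached by Unc93b1. In WT Mono the densest gene held 1.54 in mouse 24028, at 1209266 counts, and 1.55 in mouse 24214, at 1932427 counts. It thus did not follow depth there. Filtering of reads was not given, and what such a limit would do to the members was not tested.

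Promoter sequences were matched by symbol for 7 of the 9 members in the RefSeq table of build GRCm38.p6, which gives 250 bases before and 50 bases after each annotated start. Tlr7 and Unc93b1 had none in it. Shown are the windows of 4 members that differed in opposite directions between RPM and Mono, Tlr3 and Lgmn being higher in RPM and Tlr13 and Cnpy3 higher in Mono. They read 5′ to 3′ on the gene's strand. Capitals mark a match to the E-box CACGTG, and lower case holds no match to either motif searched. The windows are chr8:45410331-45410630 on the minus strand for Tlr3, chrX:106143025-106143324 on the plus strand for Tlr13 and chr17:46752165-46752464 on the minus strand for Cnpy3. Lgmn has starts at chr12:102439679-102439978 and, downstream of it, at chr12:102439043-102439342, both on the minus strand.
Tlr3: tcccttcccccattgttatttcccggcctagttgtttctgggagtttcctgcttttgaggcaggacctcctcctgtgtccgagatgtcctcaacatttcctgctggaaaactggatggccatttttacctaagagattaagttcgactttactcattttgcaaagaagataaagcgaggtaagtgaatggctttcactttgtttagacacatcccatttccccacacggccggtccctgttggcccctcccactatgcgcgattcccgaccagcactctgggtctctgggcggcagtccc
Lgmn, upstream start: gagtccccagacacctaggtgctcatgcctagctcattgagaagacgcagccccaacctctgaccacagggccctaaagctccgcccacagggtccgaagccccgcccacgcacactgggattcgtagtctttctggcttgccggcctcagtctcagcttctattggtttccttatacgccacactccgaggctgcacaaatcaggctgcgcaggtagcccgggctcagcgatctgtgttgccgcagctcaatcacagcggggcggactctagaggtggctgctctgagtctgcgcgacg
Lgmn, downstream start: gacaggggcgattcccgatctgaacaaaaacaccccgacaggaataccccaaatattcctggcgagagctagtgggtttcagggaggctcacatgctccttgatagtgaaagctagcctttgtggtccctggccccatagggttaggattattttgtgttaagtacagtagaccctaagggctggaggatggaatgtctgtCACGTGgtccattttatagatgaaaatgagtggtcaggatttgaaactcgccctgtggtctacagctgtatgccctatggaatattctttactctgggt
Tlr13: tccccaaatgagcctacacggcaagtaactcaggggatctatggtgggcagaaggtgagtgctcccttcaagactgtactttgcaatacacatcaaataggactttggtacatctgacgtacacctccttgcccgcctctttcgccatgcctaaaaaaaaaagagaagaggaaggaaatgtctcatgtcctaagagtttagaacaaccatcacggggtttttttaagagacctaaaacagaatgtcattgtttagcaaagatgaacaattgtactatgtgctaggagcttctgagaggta
Cnpy3: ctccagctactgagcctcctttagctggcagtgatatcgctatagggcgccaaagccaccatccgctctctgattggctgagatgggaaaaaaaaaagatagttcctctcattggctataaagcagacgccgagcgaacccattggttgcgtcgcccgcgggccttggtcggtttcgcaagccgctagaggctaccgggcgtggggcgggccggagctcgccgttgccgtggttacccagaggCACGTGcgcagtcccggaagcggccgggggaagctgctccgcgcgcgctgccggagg

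The motifs searched on both strands were the E-box CACGTG, found in 7.15% of the 32851 windows of the table, and the PU.1-type ETS motif GAGGAAGT, found in 3.2%. They do not overlap each other in the members' windows. Of the 8 windows of the 7 members, the E-box was in Cnpy3, at position -7 from the start, and in the downstream window of Lgmn, at -49. The ETS motif was in Tlr9, at position 10. So a gene higher in Mono and a gene higher in RPM held the same letters. The windows of Tlr8, Tlr3, Tlr13 and Slc15a4 and the upstream window of Lgmn held neither motif. GC content ran from 32.3% in Tlr8 to 64% in Slc15a4. A match describes the letters of the window and not the binding of a factor.

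Tlr7 was high in all TLR7.1 populations and lower in all WT ones. It ran from 907 to 1271 CPM in TLR7.1 iHPC (median 1133), from 497 to 1531 CPM in TLR7.1 RPM (median 1001) and from 767 to 1183 CPM in TLR7.1 Mono (median 1030). In WT RPM it ran from 107 to 384 CPM (median 202), and in WT Mono from 215 to 366 CPM (median 305). The lowest TLR7.1 library, the RPM of mouse 24107, lay above the highest WT library, the RPM of mouse 24416, so the genotypes did not overlap in any population. TLR7.1 RPM spread the most, with an SD of 339.7 CPM around a mean of 1029 CPM, against 133 CPM around 1116 CPM in TLR7.1 iHPC. Since Tlr7 is the gene the line overexpresses, its rise checks the labels, and all 30 libraries fell on the side of their label.

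In Mono, Tlr7 was 3.24-fold higher in TLR7.1 (log2 fold change 1.70 ± 0.218 SE, adjusted p = 5.94e-06, edgeR's quasi-likelihood test with Benjamini-Hochberg adjustment over 11030 genes, n = 6 each). In RPM it was 4.52-fold higher (2.18 ± 0.23, adjusted p = 2.6e-07 by the same test). The effects of genotype differed, RPM minus Mono, by 0.48 ± 0.308 on the log2 scale (adjusted p = 0.66), which was not called. By p, Tlr7 ranked 9 among all genes in Mono and 2 in RPM. By the size of the rise it ranked only 161 of the 199 genes called higher in Mono and 192 of the 494 called higher in RPM. Within each of the 3 collection dates, the log2 ratio of mean CPM was 1.65, 2.30 and 1.52 in Mono and 2.73, 3.18 and 1.85 in RPM for 13, 21 and 26 December. On 21 December there was 1 WT mouse.

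Tlr7 was the only member of the 8 tested that changed with genotype in either population. That is 1 of 8, against 2.1% of all genes called in TLR7.1 Mono relative to WT Mono (1.8% higher and 0.299% lower) and 8.25% in TLR7.1 RPM relative to WT RPM (4.48% higher and 3.77% lower). With the mouse as a block, 403 in place of 232 genes were called in Mono. That fit used limma's voom in place of edgeR, so the method changed together with the block. Fitting only the groups compared gave 750 in place of 232 genes in Mono and 158 in place of 910 in RPM. Which population holds more called genes thus depends on the fit. The 1 member called is the gene the line overexpresses. The next members by p were Tlr3 in Mono, at 1.29 ± 0.626 (unadjusted p = 0.0468, adjusted p = 0.65), and Slc15a4 in RPM, at -0.61 ± 0.297 (unadjusted p = 0.049, adjusted p = 0.217, edgeR). The remaining estimates lay between -0.45, for Tlr8 in RPM, and 0.22, for Lgmn in RPM. For the difference of both genotype effects, 0 of the 8 members were called by edgeR and 0 by DESeq2. In all genes edgeR called 0.689% (0.399% higher and 0.29% lower), and with the mouse as a block 22 in place of 76 genes. At an unadjusted p under 0.05 there was 1 member, Lgmn, at 0.43 ± 0.194 (unadjusted p = 0.035, adjusted p = 0.406).

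Markers of other cells also differed between the genotypes. Neutrophil markers summed to 64.8 to 1289 CPM in TLR7.1 Mono and to 1.03 to 5.23 CPM in WT Mono, and 3 of the 3 tested were higher in TLR7.1. These passed the filter through TLR7.1 libraries, so nothing is read from that count. In TLR7.1 Mono the median was 109 CPM for S100a8, 20.4 for Ngp, 3.12 for Camp and 3.1 for Ltf, with up to 536 CPM of Ngp. Ly6g and Retnlg averaged 1 and 0.804 CPM there. In RPM, 3 of 7 erythroid and 3 of 5 platelet markers were higher in TLR7.1, beside 4.48% of all genes. The platelet markers Itga2b, Gp9 and Gp1bb averaged 1.78, 0.664 and 0 CPM in WT RPM. They passed the filter through TLR7.1 libraries, so nothing is read from the platelet count. Summed erythroid markers ran from 1553 to 3058 CPM in TLR7.1 RPM and from 324 to 3329 CPM in WT RPM. Summed platelet markers ran from 0 to 112 CPM in TLR7.1 RPM and from 17.2 to 85.7 CPM in WT RPM. Their part in the values of Tlr7 was not tested.

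**Figure D1:**
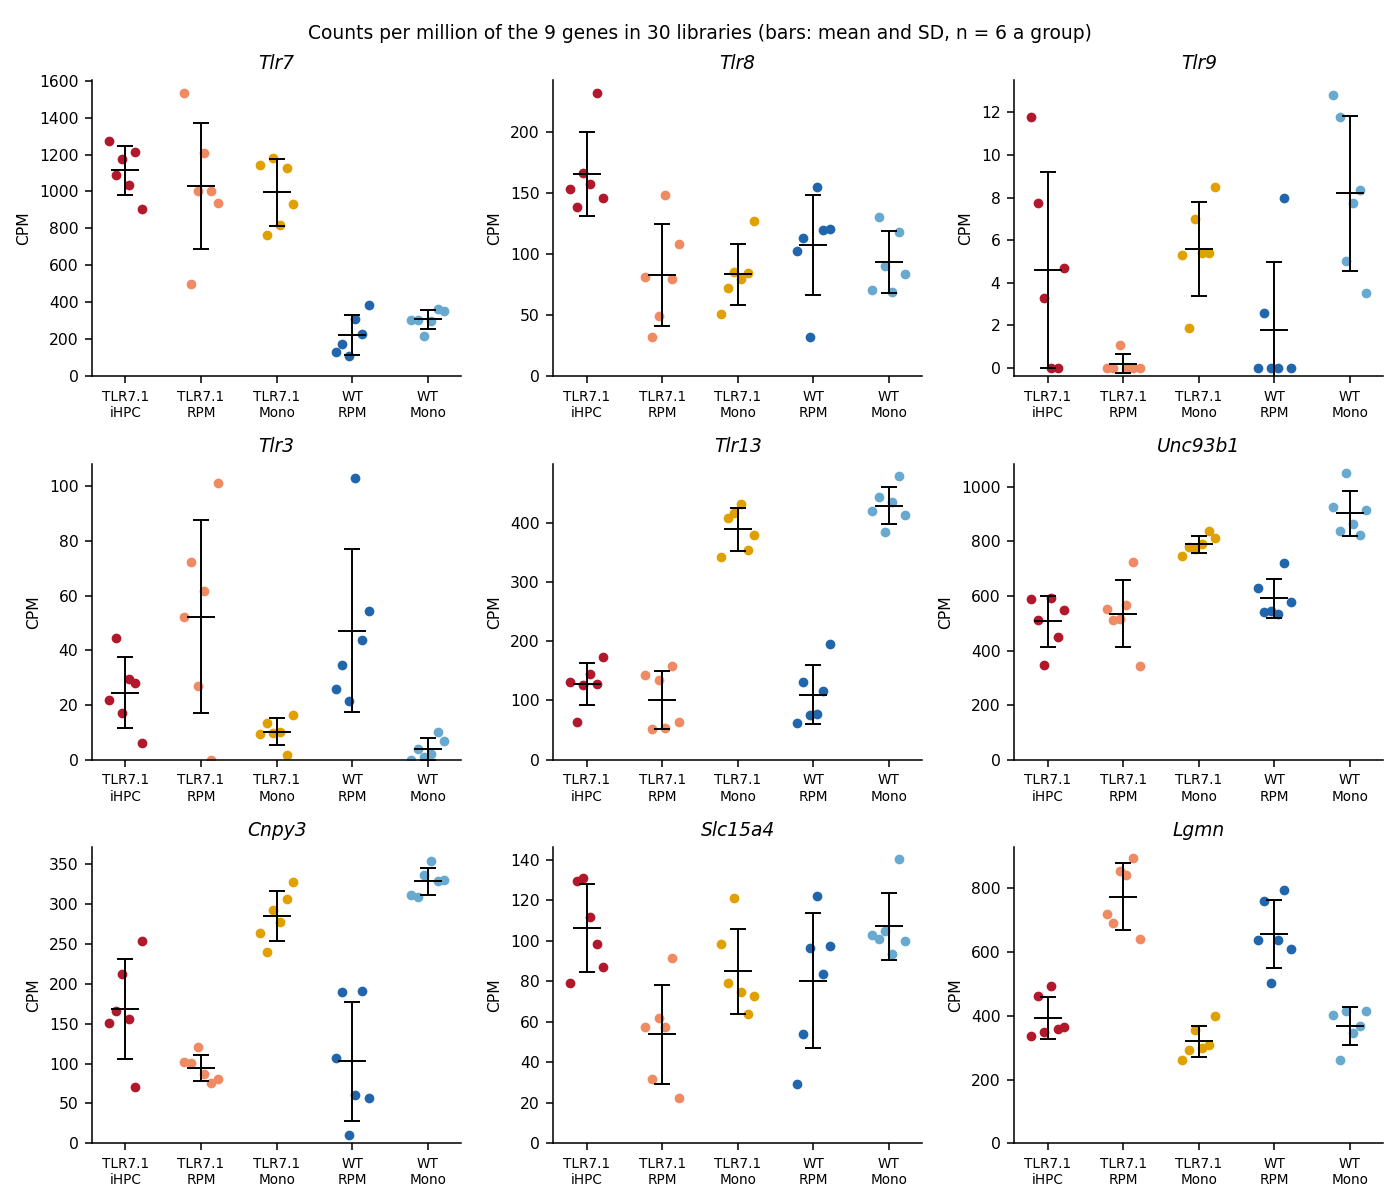
CPM of each of the 9 genes in all 30 libraries, with 1 point a library and bars for the mean and SD of 6 libraries. Tlr7 separates the genotypes, with every TLR7.1 library at or above 497 CPM and every WT library at or below 384 CPM, while Tlr13, Unc93b1 and Cnpy3 are highest in both groups of Mono and Lgmn in both groups of RPM.

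No tested gene near Tlr7 on the X chromosome was called together with it. In the GENCODE M21 annotation 29 genes lie within 1 Mb of Tlr7, and 8 of them were tested. Of these 8, edgeR called 0 in TLR7.1 Mono relative to WT Mono and 0 in TLR7.1 RPM relative to WT RPM, as did DESeq2, and edgeR gave 0 and 1 at an unadjusted p under 0.05. Tlr8, the closest receptor gene and the next tested gene on 1 side, was at -0.17 ± 0.273 in Mono and -0.45 ± 0.291 in RPM. Prps2, which makes the nucleotide precursor phosphoribosyl pyrophosphate and is the next tested gene on the other side, was at -0.10 ± 0.354 in Mono and 0.22 ± 0.362 in RPM. The largest estimates were those of Gpm6b in Mono, at 1.92 ± 1.06, and Trappc2 in RPM, at 1.04 ± 0.46 (adjusted p = 0.166). Gpm6b held 0.302 ± 0.511 CPM in TLR7.1 Mono and 0 in WT Mono, so its estimate rests on few reads. For Tmsb4x, an actin-binding peptide gene with the most reads of the 8, the estimates were -0.04 ± 0.378 and -0.51 ± 0.382.

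**Figure D2:**
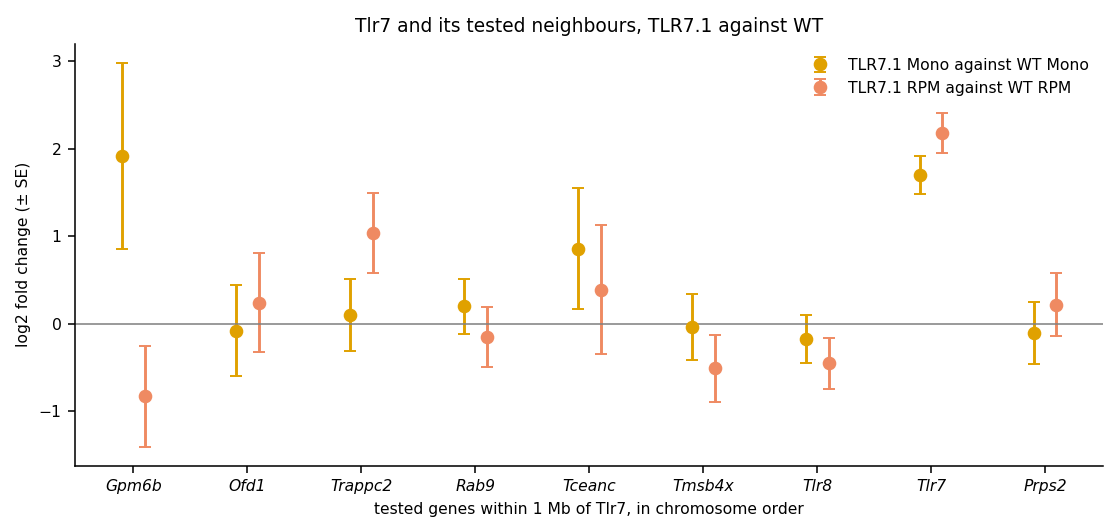
Log2 fold change with SE of Tlr7 and the 8 tested genes within 1 Mb of it, in chromosome order, for TLR7.1 Mono against WT Mono and TLR7.1 RPM against WT RPM (n = 6 each). Tlr7 stands at 1.70 and 2.18, and none of its neighbours was called in either comparison.

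Tlr8, which in the mouse is best known for restraining TLR7, was highest in iHPC. It ran from 138 to 232 CPM in TLR7.1 iHPC (median 155), from 31.8 to 148 CPM in TLR7.1 RPM (median 80.2) and from 50.9 to 127 CPM in TLR7.1 Mono (median 82.2). WT RPM held 32.1 to 155 CPM (median 116) and WT Mono 69 to 130.1 CPM (median 86.7). In 6 of 6 mice the iHPC library was above the RPM library and in 6 of 6 above the Mono library, and the iHPC and TLR7.1 Mono ranges did not overlap. The rise was 1.99-fold relative to TLR7.1 RPM (0.99 ± 0.284, adjusted p = 0.00811) and 1.97-fold relative to TLR7.1 Mono (0.98 ± 0.276, adjusted p = 0.00505, edgeR). Between RPM and Mono, Tlr8 was not called in TLR7.1 (-0.01 ± 0.282) or in WT mice (0.26 ± 0.281). With every library thinned to the 95002 counts of the smallest, neither iHPC difference was called (0.89, adjusted p = 0.0762, and 0.77, adjusted p = 0.1).

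Tlr9 gave 166 reads in all 30 libraries. Its 166 reads were 32 in TLR7.1 iHPC, 1 in TLR7.1 RPM, 52 in TLR7.1 Mono, 8 in WT RPM and 73 in WT Mono. It was at 0 in 2 of 6 iHPC libraries, in 5 of 6 TLR7.1 RPM libraries, in 4 of 6 WT RPM libraries and in 0 Mono libraries. The median was 3.98 CPM in TLR7.1 iHPC, 0 in TLR7.1 RPM, 5.4 CPM in TLR7.1 Mono, 0 in WT RPM and 8.03 CPM in WT Mono. A library at 0 still allows a level of up to 3 counts, which is 2.39 to 11.2 CPM in the 5 TLR7.1 RPM libraries at 0, so at this depth absence was not shown. When no filter was applied, edgeR called Tlr9 higher in iHPC than in TLR7.1 RPM (adjusted p = 0.00916) and lower in TLR7.1 RPM than in TLR7.1 Mono (adjusted p = 0.00277). Markers of B cells, which also express Tlr9, summed to 208 to 574 CPM in TLR7.1 iHPC, 336 to 1412 CPM in TLR7.1 RPM and 56.3 to 210.2 CPM in TLR7.1 Mono, and their part in the Tlr9 reads was not tested.

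Tlr3 was higher in RPM than in Mono. It ran from 6.04 to 44.4 CPM in TLR7.1 iHPC (median 25), from 0 to 101 CPM in TLR7.1 RPM (median 56.9) and from 1.8 to 16.4 CPM in TLR7.1 Mono (median 10). In WT mice it ran from 21.4 to 103 CPM in RPM (median 39.3) and from 0 to 10.2 CPM in Mono (median 2.99). In WT mice the RPM and Mono ranges did not overlap, and Tlr3 was 11.5-fold higher in RPM (3.52 ± 0.646, adjusted p = 3.44e-05). In TLR7.1 mice it was 5.19-fold higher in RPM than in Mono (2.38 ± 0.589, adjusted p = 0.00123, edgeR), in 5 of 6 mice. The exception was mouse 24380, whose TLR7.1 RPM library held no Tlr3 read, which allows up to 11.2 CPM. In iHPC, Tlr3 was at -1.16 ± 0.573 relative to TLR7.1 RPM (adjusted p = 0.139) and at 1.22 ± 0.588 relative to TLR7.1 Mono (adjusted p = 0.0994), neither of which was called. Without mouse 24380 the first was called, at -1.41, and without mouse 24304 the second, at 1.63. The second was also called when only the libraries of its 2 groups were fitted (1.24, adjusted p = 0.0269).

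Tlr3 is also high in type 1 conventional dendritic cells, and markers of these cells were present. Xcr1, their chemokine receptor, averaged 62.8 ± 41.6 CPM in TLR7.1 iHPC, 40.9 ± 31.1 CPM in TLR7.1 RPM, 3.69 ± 2.17 CPM in TLR7.1 Mono, 44.1 ± 31.3 CPM in WT RPM and 1.15 ± 1.28 CPM in WT Mono. Over all 8 markers the sum ran from 402 to 778 CPM in TLR7.1 RPM and from 746 to 867 CPM in TLR7.1 Mono, and from 503 to 814 CPM in WT RPM and from 679.5 to 802 CPM in WT Mono. In Mono most of the sum was Naaa, at 577 ± 47.3 CPM in TLR7.1 and 443 ± 37 CPM in WT mice. Of the 5 groups, iHPC held the highest mean of Xcr1 and Batf3 and the lowest of Clec9a, Flt3, Zbtb46, Naaa and Tlr11. Of the 8 markers, 4 were higher and 1 lower in TLR7.1 RPM than in TLR7.1 Mono (46.6% of all genes called). In WT RPM relative to WT Mono 3 were higher and 2 lower (46.2%). In iHPC 1 was higher and 4 lower than in TLR7.1 RPM (27.1% of all genes called), and 3 were higher and 3 lower than in TLR7.1 Mono (38.7%). The part of such cells in Tlr3 was not tested.

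Tlr13 was lower in iHPC and RPM than in Mono. It ran from 63.2 to 173 CPM in TLR7.1 iHPC (median 129), from 52.7 to 159 CPM in TLR7.1 RPM (median 99.4) and from 342 to 432 CPM in TLR7.1 Mono (median 394). WT RPM held 61.9 to 195 CPM (median 96.5) and WT Mono 384 to 478 CPM (median 427). Every Mono library of either genotype was above every iHPC and every RPM library. Tlr13 fell 3.03-fold in iHPC relative to TLR7.1 Mono (-1.60 ± 0.246, adjusted p = 3.09e-06). It was 4.01-fold lower in TLR7.1 RPM than in TLR7.1 Mono (SE 0.256 on the log2 scale, adjusted p = 8.49e-08) and 3.84-fold lower in WT RPM than in WT Mono (-1.94 ± 0.258, adjusted p = 1.69e-07, edgeR). Between iHPC and TLR7.1 RPM the difference of 0.40 ± 0.257 was not called, with 3 mice in each direction.

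Set against each other per length of exon, the 5 receptors had a different make-up in TLR7.1 and WT cells. In CPM per kilobase, Tlr7 made up a median of 76.8% of the sum in TLR7.1 iHPC, 81.2% in TLR7.1 RPM, 66.9% in TLR7.1 Mono, 45.2% in WT RPM and 37.5% in WT Mono. It was the largest share in 6 of 6 libraries of each group except WT Mono, where Tlr13 was the largest in 6 of 6 with a median of 48.5%. Tlr8 made up a median of 12.8% in TLR7.1 iHPC, 6.48% in TLR7.1 RPM, 6.36% in TLR7.1 Mono, 26.9% in WT RPM and 12.5% in WT Mono. Tlr3 had its highest median, 6.44%, in WT RPM, and Tlr9 stayed at or below a median of 1.07% in all groups. Shares must add to 100%, so those of the other receptors fall where that of Tlr7 rises. The sum itself had a median of 352 CPM per kilobase in TLR7.1 iHPC, 300.1 in TLR7.1 RPM, 367 in TLR7.1 Mono, 119.7 in WT RPM and 202 in WT Mono.

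**Figure D3:**
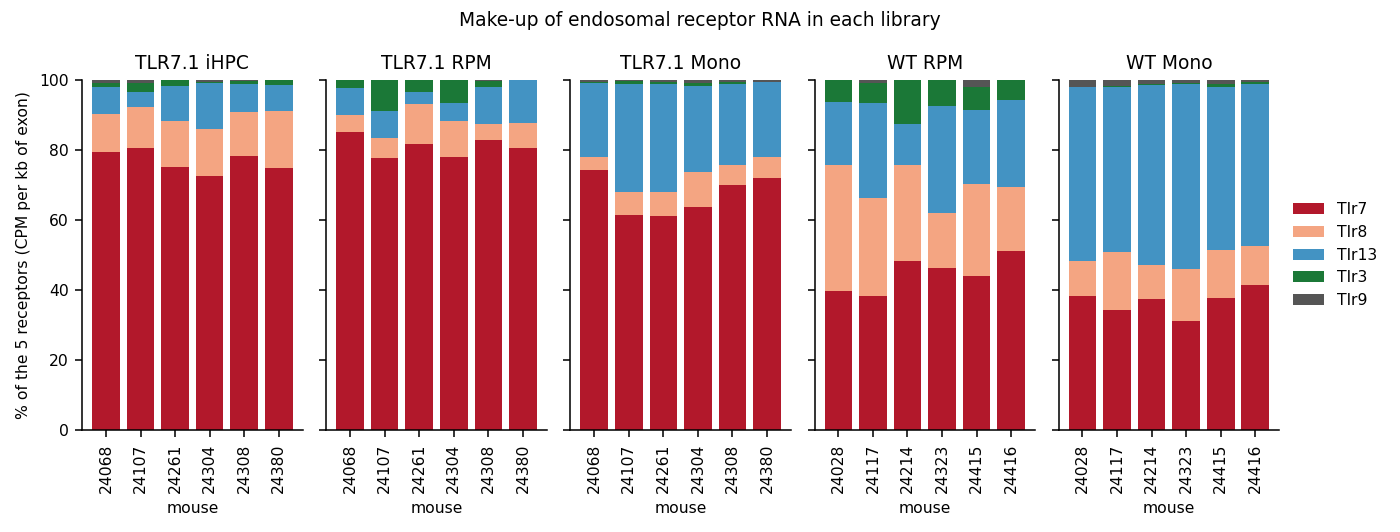
Share of each of the 5 receptors in their summed CPM per kilobase of exon, with 1 bar a library named by its mouse. Tlr7 is the largest block in every library outside WT Mono, and Tlr13 is the largest in all 6 WT Mono libraries, with a median of 48.5%.

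Unc93b1, the carrier that all endosomal receptors depend on, was high in all groups and highest in Mono. It ran from 347 to 593 CPM in TLR7.1 iHPC (median 530.5), from 345 to 726 CPM in TLR7.1 RPM (median 533) and from 746 to 837 CPM in TLR7.1 Mono (median 786). WT RPM held 533 to 721 CPM (median 561) and WT Mono 824 to 1049 CPM (median 889.6). No iHPC or TLR7.1 RPM library reached the TLR7.1 Mono range, and no WT RPM library reached the WT Mono range. Unc93b1 was 1.55-fold lower in iHPC than in TLR7.1 Mono (-0.64 ± 0.133, adjusted p = 0.000249), 1.48-fold lower in TLR7.1 RPM than in TLR7.1 Mono (-0.57 ± 0.134, adjusted p = 0.000737) and 1.52-fold lower in WT RPM than in WT Mono (-0.61 ± 0.135, adjusted p = 0.000364, edgeR). Relative to TLR7.1 RPM, iHPC were at -0.07 ± 0.134.

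The Tlr7 count relative to that of its carrier differed between the genotypes, at the level of RNA. The log2 ratio of Tlr7 to Unc93b1 counts, which does not depend on scaling between libraries, averaged 0.31 ± 0.28 in TLR7.1 Mono and -1.57 ± 0.38 in WT Mono (SD, n = 6 each), a difference of 1.88. In RPM it averaged 0.90 ± 0.59 in TLR7.1 and -1.54 ± 0.72 in WT mice, a difference of 2.43. Neither pair of groups overlapped. For both, the two-sided exact permutation test gave p = 0.00216, the smallest that 6 against 6 libraries allow, and 0.00216 after adjustment over 4 tests. Tlr7 is the gene the line overexpresses, and its CPM already separated the genotypes. A difference in ratios with Tlr7 was therefore set in advance, and these tests only check the labels. The other 2 tests were of Tlr7 to Tlr9. In Mono that log2 ratio differed by 2.22 (exact p = 0.00216), and by 1.46 with every library thinned to 95002 counts (adjusted exact p = 0.0909). In RPM, Tlr9 was at 0 in 5 of 6 TLR7.1 and 4 of 6 WT libraries, so the ratio there is set by the added 0.5 and by depth, and nothing is read from its test. Per length of exon, Tlr7 stood at a median of 1.59 times Unc93b1 in TLR7.1 iHPC, 1.51 in TLR7.1 RPM, 0.926 in TLR7.1 Mono, 0.239 in WT RPM and 0.264 in WT Mono. Within mice the log2 ratio was higher in iHPC than in Mono in 6 of 6, by 0.488 to 1.14, and higher in iHPC than in RPM in 3 of 6.

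**Figure D4:**
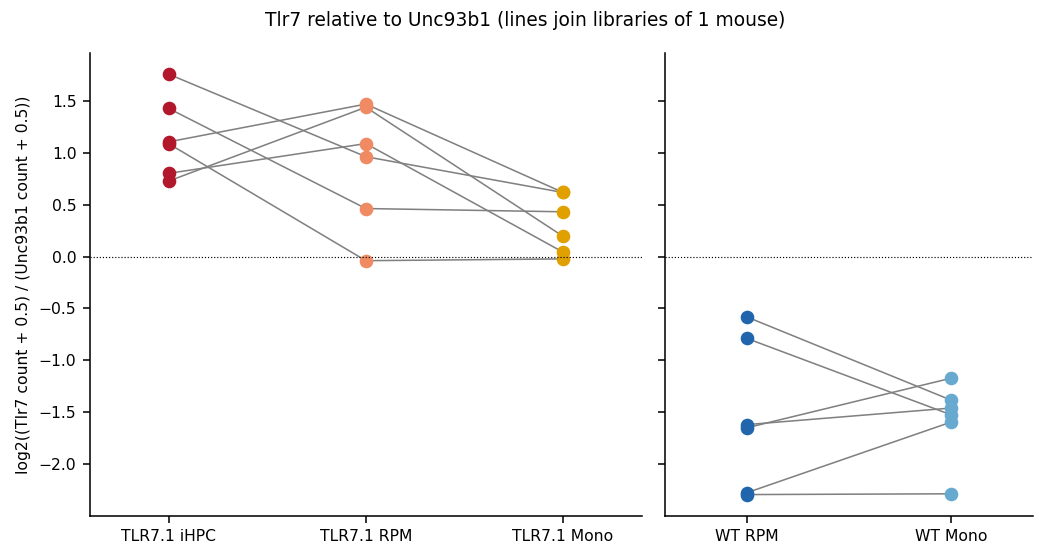
Log2 ratio of Tlr7 to Unc93b1 counts, each with 0.5 added, in every library, with lines joining the libraries of 1 mouse. TLR7.1 libraries run from -0.0399 upward and WT libraries from -0.583 downward, and the iHPC point is above the Mono point in 6 of 6 TLR7.1 mice.

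Cnpy3, a co-chaperone of gp96 in folding Toll-like receptors, was also highest in Mono. It ran from 70.4 to 254 CPM in TLR7.1 iHPC (median 161), from 75.8 to 121 CPM in TLR7.1 RPM (median 93.6) and from 240.1 to 328 CPM in TLR7.1 Mono (median 285). WT RPM held 10.7 to 191 CPM (median 83.9) and WT Mono 309 to 354 CPM (median 329.6). Within either genotype no RPM library reached the Mono range, while the iHPC range overlapped both others, from 70.4 CPM in mouse 24380 to 254 CPM in mouse 24304. Cnpy3 was 2.99-fold lower in TLR7.1 RPM than in TLR7.1 Mono (-1.58 ± 0.271, adjusted p = 1.29e-05) and 2.89-fold lower in WT RPM than in WT Mono (-1.53 ± 0.272, adjusted p = 2.21e-05, edgeR). The iHPC lay between, 1.8-fold above TLR7.1 RPM (0.85 ± 0.271, adjusted p = 0.0175) and 1.66-fold below TLR7.1 Mono (-0.73 ± 0.259, adjusted p = 0.0242). The first of these was not called without mouse 24304 (0.65), and the second was not called without mouse 24068 (-0.72), 24261 (-0.71) or 24380 (-0.53). Neither was called at 95002 counts a library (0.70, adjusted p = 0.197, and -0.49, adjusted p = 0.295).

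Slc15a4, the lysosomal transporter, ran from 79.3 to 131 CPM in TLR7.1 iHPC (median 105), from 22.5 to 91.7 CPM in TLR7.1 RPM (median 57.5) and from 64 to 121 CPM in TLR7.1 Mono (median 77.2). WT RPM held 29.2 to 122 CPM (median 90) and WT Mono 93.8 to 140.3 CPM (median 102). In 6 of 6 mice it was higher in iHPC than in RPM, by 2.07-fold (1.05 ± 0.285, adjusted p = 0.00537, edgeR), although the highest TLR7.1 RPM library, at 91.7 CPM, lay within the iHPC range. It was 1.66-fold lower in TLR7.1 RPM than in TLR7.1 Mono (-0.73 ± 0.282, adjusted p = 0.033). That call was lost without mouse 24068 (-0.72), 24107 (-0.62), 24304 (-0.59) or 24308 (-0.66). It was also lost when only the libraries of these 2 groups were fitted (-0.69, adjusted p = 0.0829). Neither call held at 95002 counts a library, where the log2 fold changes were 0.67 and -0.15. In WT mice RPM and Mono differed by -0.45 ± 0.281, which was not called.

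Lgmn, the endopeptidase legumain, was highest in RPM. It ran from 338 to 495 CPM in TLR7.1 iHPC (median 361), from 641 to 897 CPM in TLR7.1 RPM (median 782) and from 263 to 400.4 CPM in TLR7.1 Mono (median 303). WT RPM held 503 to 795 CPM (median 639) and WT Mono 262 to 416 CPM (median 386). Every RPM library was above every iHPC and Mono library. Lgmn was 1.96-fold lower in iHPC than in TLR7.1 RPM (-0.97 ± 0.138, adjusted p = 1.47e-06). It was 2.42-fold higher in TLR7.1 RPM than in TLR7.1 Mono (1.27 ± 0.138, adjusted p = 2.85e-09) and 1.8-fold higher in WT RPM than in WT Mono (0.85 ± 0.138, adjusted p = 5.73e-06, edgeR). Between iHPC and TLR7.1 Mono the difference was 0.30 ± 0.137 (adjusted p = 0.077). It was called at 0.34 when only both groups were fitted, at 0.37 without libraries under 300000 counts, at 0.57 at 95002 counts a library and at 0.41 without mouse 24304.

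Counted over the 8 members tested, 4 were called in iHPC relative to TLR7.1 RPM, 3 higher (Tlr8, Cnpy3 and Slc15a4) and 1 lower (Lgmn), where 27.1% of all genes were called, 13.6% higher and 13.5% lower. Relative to TLR7.1 Mono, 1 was higher in iHPC (Tlr8) and 3 were lower (Tlr13, Unc93b1 and Cnpy3), where 38.7% of all genes were called, 19.3% higher and 19.4% lower. In TLR7.1 RPM relative to TLR7.1 Mono, 2 were higher (Tlr3 and Lgmn) and 4 lower (Tlr13, Unc93b1, Cnpy3 and Slc15a4), against 46.6% of all genes, 23.9% higher and 22.6% lower. In WT RPM relative to WT Mono, 2 were higher and 3 lower, the same genes without Slc15a4, against 46.2% of all genes, 23.7% higher and 22.5% lower. Basophil and mast cell markers summed to a median of 2846 CPM in iHPC and to at most 21.4 CPM in any library of the other groups. The 1 marker tested passed the filter mainly through iHPC, so nothing is read from its test. B cell markers moved with RPM, 8 of 8 being higher in TLR7.1 RPM than in TLR7.1 Mono and 5 of 8 in WT RPM than in WT Mono, and 5 of 8 were lower in iHPC than in TLR7.1 RPM. Their part in these counts was not tested. The comparisons within TLR7.1 mice share libraries, so their values are not independent of each other. With 8 members, 4 to 6 calls stand beside backgrounds of 27.1% to 46.6%. Tlr7 was called in none of these 4 comparisons. In WT mice it was at -0.43 ± 0.223 in RPM relative to Mono (adjusted p = 0.11), and with the mouse as a block it was called lower in WT RPM, at -0.56 (adjusted p = 0.0393).

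**Figure D5:**
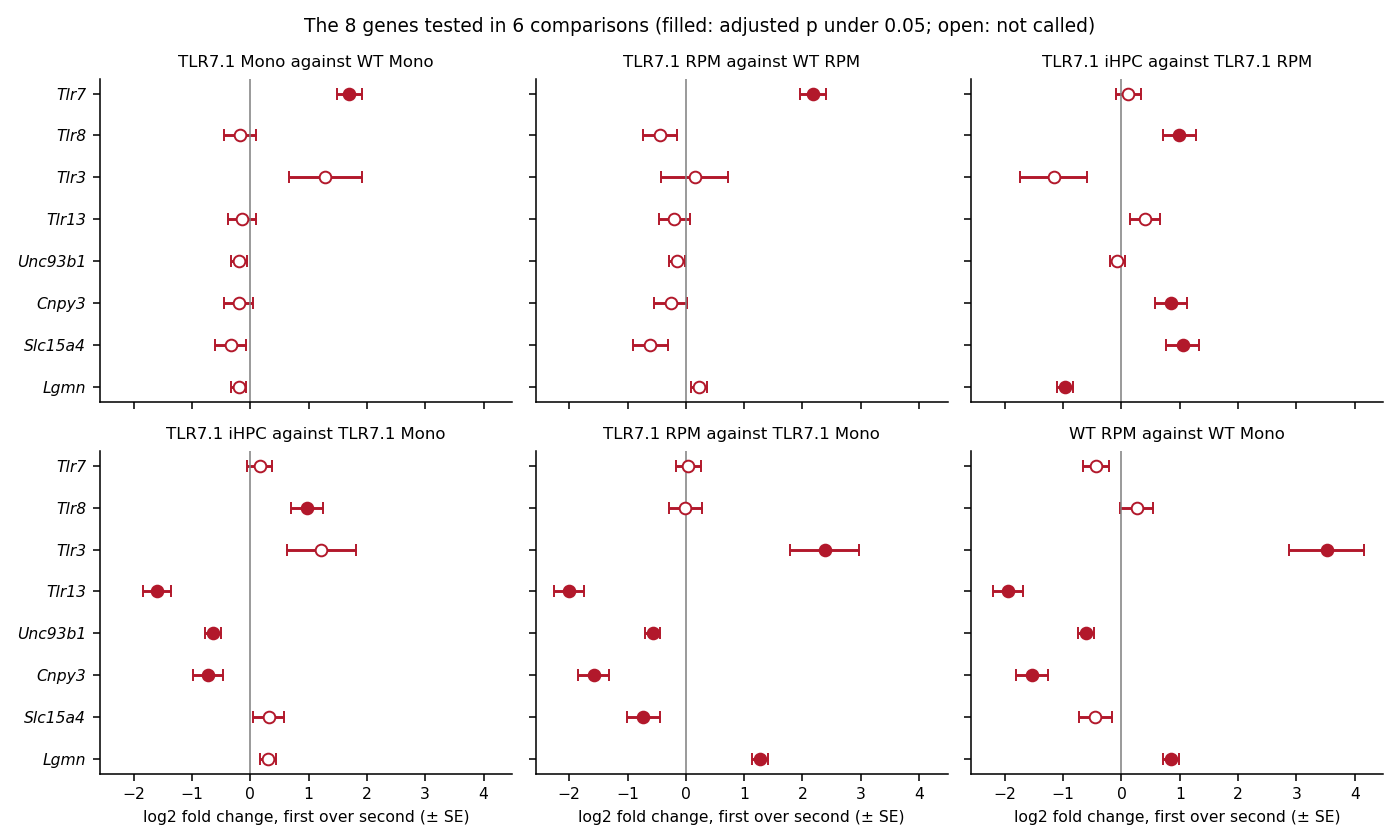
Log2 fold change with SE of the 8 tested genes in 6 comparisons, with 6 libraries in each group, filled where the adjusted p was under 0.05. Tlr7 is the filled point in both comparisons of genotype, and the points of RPM against Mono have Tlr3 and Lgmn to the right and Tlr13, Unc93b1 and Cnpy3 to the left in both genotypes.

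Compared per length within a group, the member with the highest mean also differed between populations. In TLR7.1 iHPC it was Tlr7, at 273 ± 32.5 CPM per kilobase, followed by Lgmn at 169.9 ± 28.5 and Unc93b1 at 167 ± 31.2, which lay within their spread of each other. In RPM it was Lgmn, at 334 ± 44.6 CPM per kilobase in TLR7.1 mice, where it lay within the SD of Tlr7 at 252 ± 83.2, and at 283 ± 45.6 in WT mice. In Mono it was Unc93b1, at 261 ± 10.5 CPM per kilobase in TLR7.1 mice, where Tlr7 at 244 ± 44.4 lay within its SD, and at 298 ± 27.3 in WT mice, where Tlr7 was at 75.1 ± 12.9.

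Beyond the 9 members, 20 of 21 genes listed for delivery and processing of endosomal receptors were tested. In TLR7.1 Mono relative to WT Mono, where 2.1% of all genes were called, 1 of 20 was higher and 0 lower. It was Ctsl, the lysosomal protease cathepsin L, at 223 ± 54.4 CPM in TLR7.1 Mono and 119 ± 22.7 CPM in WT Mono (0.91 ± 0.171, adjusted p = 0.00108, edgeR). In TLR7.1 RPM relative to WT RPM, where 8.25% of all genes were called, 0 were called by edgeR, 2 had an unadjusted p under 0.05, and DESeq2 called 0. In iHPC relative to TLR7.1 RPM 1 was higher and 6 were lower, where 27.1% of all genes were called. Cathepsin B, Ctsb, fell to 1570 ± 237 CPM in iHPC, against 3113 ± 1018 CPM in TLR7.1 RPM (-0.99 ± 0.163, adjusted p = 1.73e-05), and cathepsin H, Ctsh, was higher in iHPC (0.34 ± 0.121, adjusted p = 0.0365). In iHPC relative to TLR7.1 Mono 1 was higher and 3 were lower, where 38.7% of all genes were called. The higher gene was Hsp90b1, which encodes gp96, the chaperone that works with CNPY3, at 745 ± 109 CPM in iHPC and 523 ± 33.2 CPM in TLR7.1 Mono (0.51 ± 0.113, adjusted p = 0.000528). TLR7.1 RPM held 936 ± 95.6 CPM of it. Ap2m1, a subunit of the endocytic adaptor AP-2, was lower (-1.07 ± 0.215, adjusted p = 0.000161). The medians over the 20 genes were -0.219 and -0.201 in these 2 comparisons, beside -0.00475 and 0.00471 over all genes.

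In TLR7.1 RPM relative to TLR7.1 Mono 6 of the 20 were higher and 4 lower, where 46.6% of all genes were called, and in WT RPM relative to WT Mono 5 were higher and 4 lower, where 46.2% of all genes were called. Cathepsin F, Ctsf, was higher in RPM in both genotypes, at 42.3 ± 25.7 CPM in TLR7.1 RPM and 1.73 ± 1.4 CPM in TLR7.1 Mono (adjusted p = 1.53e-05), and at 44.2 ± 14.7 CPM in WT RPM and 3.85 ± 5 CPM in WT Mono (adjusted p = 0.000197, edgeR). Furin, a convertase that can cleave TLR7, was lower in TLR7.1 RPM than in TLR7.1 Mono (-1.30 ± 0.394, adjusted p = 0.00709). Ap3m1, a subunit of the adaptor AP-3, was lower in WT RPM than in WT Mono (-1.28 ± 0.274, adjusted p = 0.000249). The medians were -0.255 and -0.311, beside -0.0325 and -0.0214 over all genes.

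Of 8 genes listed for lysosomal control of nucleic acid ligands, 6 were matched and tested. Pld3 and Pld4, exonucleases that degrade single-stranded nucleic acid in lysosomes, ran opposite to each other between the populations. Pld3 was at 112 ± 26.1 CPM in iHPC, 724 ± 206 CPM in TLR7.1 RPM and 48 ± 13.9 CPM in TLR7.1 Mono, and Pld4 at 975 ± 135, 524 ± 72 and 1088 ± 75.6 CPM in the same groups. Pld3 was lower in iHPC than in TLR7.1 RPM (-2.67 ± 0.232, adjusted p = 6.97e-11) and higher in iHPC than in TLR7.1 Mono (1.23 ± 0.232, adjusted p = 6.05e-05). Pld4 was higher in iHPC than in TLR7.1 RPM (0.90 ± 0.123, adjusted p = 8.02e-07, edgeR). Dnase2a, the lysosomal DNase, was higher in RPM than in Mono in TLR7.1 mice (2.12 ± 0.255, adjusted p = 2.33e-08) and in WT mice (2.10 ± 0.256, adjusted p = 3.13e-08).

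Slc29a3, a lysosomal nucleoside transporter, was the 1 of these 6 called for genotype, in RPM, where 8.25% of all genes were called. Its ranges overlapped, at 17.8 to 83.3 CPM in TLR7.1 RPM and 74 to 186 CPM in WT RPM. It fell to 65 ± 24.2 CPM in TLR7.1 RPM, against 123 ± 40.3 CPM in WT RPM (-0.91 ± 0.274, adjusted p = 0.0348, edgeR), and was lower still in iHPC, at 19.6 ± 4.53 CPM (-1.73 ± 0.29 relative to TLR7.1 RPM, adjusted p = 2.1e-05). Slc15a3, the closest relative of Slc15a4, was at 184 ± 21.4 CPM in iHPC and 55.9 ± 17.3 CPM in TLR7.1 Mono (1.71 ± 0.272, adjusted p = 5.16e-06), with 151 ± 61.2 CPM in TLR7.1 RPM. Of the 6 genes, 1 was higher and 3 lower in iHPC than in TLR7.1 RPM (27.1% of all genes called), and 3 were higher and 2 lower in iHPC than in TLR7.1 Mono (38.7%). In RPM relative to Mono 3 were higher and 2 lower in TLR7.1 mice (46.6%), and 4 higher and 2 lower in WT mice (46.2%). In TLR7.1 Mono relative to WT Mono edgeR and DESeq2 each called 0, and 1 had an unadjusted p under 0.05.

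Of 11 signalling genes listed downstream of the receptors, 10 were tested. For genotype, edgeR called 0 in Mono (2.1% of all genes) and 0 in RPM (8.25%), with 2 at an unadjusted p under 0.05 in each. DESeq2 called 0 in Mono and 1 in RPM. In iHPC 4 were higher and 0 lower than in TLR7.1 RPM (27.1% of all genes called), and 4 were higher and 3 lower than in TLR7.1 Mono (38.7%). Irak3, an inhibitor of signalling from MyD88, was at 305 ± 77.4 CPM in iHPC, 79.2 ± 13.6 CPM in TLR7.1 RPM and 133 ± 19.8 CPM in TLR7.1 Mono, higher in iHPC than in RPM (1.92 ± 0.213, adjusted p = 1.34e-08) and than in Mono (1.18 ± 0.202, adjusted p = 1.48e-05, edgeR). Of the 3 that were lower in iHPC than in TLR7.1 Mono, the transcription factor gene Irf7 was at 122 ± 36.2 CPM in iHPC and 564 ± 70.5 CPM in TLR7.1 Mono (-2.19 ± 0.234, adjusted p = 3.31e-09). Irf5, another transcription factor gene, was at 152 ± 29.6 CPM in iHPC and 592 ± 88.7 CPM in TLR7.1 Mono (-1.95 ± 0.175, adjusted p = 5.76e-11), with 198 ± 51.2 CPM in TLR7.1 RPM. Myd88, the adaptor itself, was at 91.4 ± 36.1 CPM in TLR7.1 RPM and 473 ± 13.7 CPM in TLR7.1 Mono (-2.39 ± 0.18, adjusted p = 6.18e-13), and likewise lower in WT RPM than in WT Mono (-2.04 ± 0.182, adjusted p = 3.42e-11). In RPM relative to Mono 0 were higher and 5 lower in TLR7.1 mice (46.6% of all genes called), and 1 was higher and 4 lower in WT mice (46.2%).

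Of 7 other Toll-like receptors, 5 were tested. Tlr4, the receptor for lipopolysaccharide, was higher in TLR7.1 Mono, at 93.2 ± 30.1 CPM, than in WT Mono, at 49.6 ± 15.2 CPM (0.91 ± 0.242, adjusted p = 0.0361). In RPM the Tlr4 medians were 123 CPM in TLR7.1 and 175 CPM in WT mice, and the genotype effects differed, RPM minus Mono, by -1.54 ± 0.346 (adjusted p = 0.024, edgeR). Tlr1, a cell-surface partner of TLR2, was higher in iHPC, at 236 ± 53.4 CPM, than in TLR7.1 RPM, at 94.4 ± 35.3 CPM (1.31 ± 0.295, adjusted p = 0.000873), and TLR7.1 Mono, at 128 ± 13 CPM (0.89 ± 0.284, adjusted p = 0.0125). Tlr11, the endosomal receptor for profilin in the mouse, was at 0 in all 6 iHPC libraries and ran from 8.39 to 23 CPM in TLR7.1 Mono. Of the 6 TLR7.1 RPM libraries, 3 were also at 0, the median was 0.536 CPM and 1 library reached 42.6 CPM. In iHPC relative to TLR7.1 RPM 1 of the 5 was higher and 1 lower (27.1% of all genes called), and relative to TLR7.1 Mono 1 was higher and 3 lower (38.7%).

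The genes whose levels across the 30 libraries were most like each member other than Tlr9 were taken by Pearson correlation of log2(CPM + 1) among 7602 genes of at least 20 CPM on average. All points share the libraries, their depth and the 5 groups, so the values describe likeness only. Tlr7 was most like Diaph3 (r = 0.814), Kif15 (0.795) and Kif20b (0.782), genes of cell division, which averaged 22.5 to 104 CPM in TLR7.1 groups and 2.19 to 6.61 CPM in WT groups. Tlr13 was most like Bst1 (0.912), Fn1 (0.909) and Vcan (0.901), which averaged at most 3.61 CPM outside Mono. Lgmn was most like Tmem141 (0.915), the heme transporter gene Slc48a1 (0.909) and Snx5 (0.905), and Cnpy3 like Snx1 (0.945), Ap1m1 (0.917) and Phospho2 (0.916). Unc93b1 was most like Irf9 (0.871), Arhgdia (0.870) and Irf5 (0.868). Tlr8 was most like Psen2 (0.775), Ascc3 (0.771) and Iqgap1 (0.764), Tlr3 like Cttnbp2nl (0.815), Hscb (0.770) and Pus10 (0.754), and Slc15a4 like Brpf1 (0.821), Ccnt2 (0.737) and Zbtb43 (0.734).

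The receptors are paralogs, but their transcripts share little exact sequence. In GENCODE M21 the longest identical run between transcripts of 2 of the receptors was 17 bases, between Tlr7 and Tlr3, and 13 bases between Tlr7 and Tlr8. In the same annotation 1 member overlapped another gene, Slc15a4 with Glt1d1 on the opposite strand, and their exons shared 0 bases. Glt1d1 held 12 reads in all libraries.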

How the data were processed

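RNA was measured in 30 libraries of 500 sorted cells, prepared per the labels' protocols with SMART-Seq v4 cDNA and Nextera XT kits. Per the submitters' processing notes, the tools included TopHat, Bowtie, SAMtools, HTSeq 0.4.1, Picard, FastQC and CASAVA 1.8.2, and the build was NCBIM37. Annotation release, strand setting and filtering of reads were not given in the sources used here. Whole-number read counts were deposited by the authors per Ensembl gene, with no normalization, of which 20439 of 37991 identifiers held a count. Symbols, exon lengths and neighbours came from GENCODE M21 on GRCm38, joined by identifier (32919 matched, 99.11% of the counts), so no coordinates of measured genes are given.

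Genes were kept by filterByExpr, scaled by TMM and fitted with edgeR 4.0.16's quasi-likelihood model (limma 3.58.1, R 4.3.3) with 1 mean per group over all 30 libraries. A gene was called at a two-sided adjusted p under 0.05, by the Benjamini-Hochberg method over 11030 genes. SE is the log2 fold change over the root of F. CPM uses TMM-scaled library sizes. Log2 ratios of counts had 0.5 added and were compared by exact permutation tests. Counting floors of 3 counts cover counting error only. Libraries of a group came from separate mice. The populations of a mouse are paired by its identity in the labels. Residuals of the 24 same-mouse pairs correlated by -0.08 to 0.194, and the main model left the mouse out.

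Alternatives were DESeq2 1.42.0 and its size factors, no filter, only the groups compared, the collection date as covariate, thinning to 95002 counts, no libraries under 300000 counts, the mouse as replicate block and leaving out each mouse. Within a genotype and for the difference of genotype effects, the block was the mouse itself, fitted in edgeR. Between genotypes it was a shared within-mouse correlation, estimated at 0.0474, fitted with limma's voom in place of edgeR. Members and lists were chosen with earlier results of these data known. Named are all members, the tested genes within 1 Mb of Tlr7, up to 2 called genes with the largest change per list, comparison and direction, and the 3 genes most like each member. Those of Tlr9 are not reported here. Some of the listed genes that this rule takes are given as counts only. Rnaset2a, Rnaset2b and Tasl were not matched and are not analysed here.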

Additional observations from a re-analysis of the deposited data

Results flagged for a closer look

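In 4 of 55 sets of 6 libraries, 1 library stood further from the others than Dixon's 95% limit allows. Chance gives about 1 in 20 such sets. Tlr8 reached 232 CPM in the TLR7.1 iHPC library of mouse 24380, against 166 CPM in the next library, and that library held 292507 counts. Tlr9 was at 1.08 CPM in the TLR7.1 RPM library of mouse 24308, with the other 5 at 0, which is 1 read. Tlr9 was at 7.97 CPM in the WT RPM library of mouse 24415, where the next was at 2.57 CPM. Slc15a4 was at 140.3 CPM in the WT Mono library of the same mouse, where the next was at 105 CPM. Leaving out mouse 24380 or any other mouse kept Tlr8 called in iHPC relative to both other populations, with log2 fold changes of 0.85 to 1.27 against TLR7.1 RPM and 0.89 to 1.18 against TLR7.1 Mono.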

How the results depend on the processing

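The 21 calls of members in a comparison gave 420 values under the alternatives, of which 405 kept direction and call, 15 kept the direction without the call and 0 reversed. Of the 21, 15 never lost the call. Both calls of Tlr7 held throughout, at 1.61 to 1.78 in Mono and 2.03 to 2.38 in RPM without 1 mouse. The other 6, of Tlr8, Cnpy3 and Slc15a4, each lost it at 95002 counts a library, and 3 of them also without 1 mouse. At 95002 counts a library the members called in iHPC against TLR7.1 RPM went to 1 in place of 4, and all genes called were 103 in TLR7.1 Mono against WT Mono, 411 in TLR7.1 RPM against WT RPM, 1677 in iHPC against TLR7.1 RPM, 2563 in iHPC against TLR7.1 Mono, 3311 in TLR7.1 RPM against TLR7.1 Mono, 3397 in WT RPM against WT Mono and 18 for the difference of genotype effects. Fitting only the groups compared gave 750 genes in Mono and 158 in RPM for genotype. With the mouse as replicate block 403 genes were called in TLR7.1 Mono against WT Mono, where limma's voom also took the place of edgeR. For the difference of genotype effects the block, fitted in edgeR, gave 22 genes and DESeq2 209. The block changed no other call of a member than that of Tlr7 in WT RPM against WT Mono (-0.56). The cause was not tested.

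The log2 ratio of Tlr7 to Tlr9 in Mono differed by 1.46 at 95002 counts (adjusted exact p = 0.0909) and by 3.48 on 13 December. In RPM it differed by 5.63 on 21 December, a value set by the added 0.5 and by depth, since Tlr9 was at 0 in most RPM libraries. On that date the log2 ratio of Tlr7 to Unc93b1 differed by 2.69 in Mono and 3.49 in RPM.

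Among the 35 uncalled results, 34 values changed sign, the largest by size being 0.23. For the difference of genotype effects these were Cnpy3 at 0.12 after thinning and 0.17 with the replicate block, Slc15a4 at 0.19 and Unc93b1 at -0.06 after thinning, and Unc93b1 at -0.02 without libraries under 300000 counts. In TLR7.1 RPM against TLR7.1 Mono they were Tlr7 at -0.01 by DESeq2 and by its size factors and at -0.03 with no filter, and Tlr8 at 0.02 with only these groups and at 0.02 without libraries under 300000 counts. The others were Tlr8 in WT RPM against WT Mono at -0.01 after thinning and Unc93b1 in iHPC against TLR7.1 RPM at 0.07 without libraries under 300000 counts.

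Leaving out each mouse gave these ranges where a sign or a call changed. For the difference of genotype effects Cnpy3 ran from -0.20 to 0.23 and Tlr13 from -0.22 to 0.17. In TLR7.1 RPM against WT RPM Cnpy3 ran from -0.39 to 0.02, Tlr13 from -0.33 to 0.02 and Tlr3 from -0.12 to 0.54. In TLR7.1 RPM against TLR7.1 Mono Tlr7 ran from -0.06 to 0.13 and Tlr8 from -0.29 to 0.14. In iHPC against TLR7.1 RPM Tlr7 ran from -0.01 to 0.22 and Unc93b1 from -0.19 to 0.07. Members called ran from 3 to 5 in iHPC against TLR7.1 RPM, 3 to 6 in iHPC against TLR7.1 Mono, 5 to 6 in TLR7.1 RPM against TLR7.1 Mono and 5 to 6 in WT RPM against WT Mono. Tlr7 in WT RPM against WT Mono was called without mouse 24416, at -0.60. All genes called for genotype ran from 162 to 261 in Mono and from 569, without mouse 24214, to 1343 in RPM, where 602 were called without mouse 24107. For the difference of genotype effects they ran from 31, without mouse 24415, to 142, without mouse 24117.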
